A study of Mus musculus with 4 samples.

Results

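The genes described here are 9 genes of the PPAR pathway in mouse peritoneal macrophages, taken by symbol from a table of 13834 genes: the receptors Pparg and Ppard, the coregulators Ppargc1b and Ncor1, and the fatty acid handling targets Fabp4, Fabp5, Angptl4, Pdk4 and Acsl1. All 9 symbols occurred once in the table, and all 9 passed the filter on low counts that left 12542 genes for testing. RNA was sequenced from 4 samples of macrophages, 2 from Dnmt1fl/fl mice (labelled wt) and 2 from Dnmt1KO mice. Both genotypes carry the floxed Dnmt1 gene, and the Dnmt1KO mice also express Cre recombinase from the LysM promoter, which is active in myeloid cells and not in macrophages alone. By the study's methods the mice were 10 weeks old, received thioglycolate broth into the peritoneum 3 days before lavage, and the lavaged cells were placed in culture. The labels do not say whether a sample is 1 mouse or a pool, so the p-values measure only the spread between these samples, which may be technical.

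PPARs are nuclear receptors that bind fatty acids and their derivatives. Each pairs with a retinoid X receptor on DNA, where a corepressor such as Ncor1 holds target genes down and a coactivator such as Ppargc1b (PGC-1β) raises them. In macrophages Pparg is known for its part in lipid uptake and alternative activation, and Ppard for the response to fatty acids released from lipoproteins. Among the targets, Fabp4 and Fabp5 are cytosolic fatty acid carriers, Angptl4 is a secreted inhibitor of lipoprotein lipase, Pdk4 is a kinase that shuts off pyruvate dehydrogenase, and Acsl1 joins long-chain fatty acids to coenzyme A.

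The question the design poses for these genes is whether they differ in level between macrophages of mice with intact Dnmt1 and of mice in which Cre was to delete this gene of the enzyme that copies CpG methylation onto newly made DNA. The study examined CpG-rich promoters of other genes, so the sequence before the start sites is shown here with each CpG in capitals, as the letters on which that enzyme acts. RefSeq (GRCm38.p6) gave 9 windows of 250 bases before a start for 5 of the members. Windows of Fabp4, Fabp5, Angptl4 and Ppargc1b were not analysed here. The 3 Pparg starts had 38, 12 and 2 CpGs in the window, the 2 Ncor1 starts 34 and 2, and the 2 Acsl1 starts 20 and 2. Ppard had 22 and Pdk4 6, beside a median of 6 and quartiles of 2 and 16 over 32851 windows of all genes. The deposited values are sums per gene, so a start with many CpGs and one with few cannot be told apart in the counts, and methylation was not measured in these files. The Ncor1 windows are given by their counts alone. The later starts of Pparg and Acsl1 lie inside the gene. For Pparg, Acsl1, Ppard and Pdk4, the bases of each window before any annotated exon of the gene within that window are given 5′ to 3′:
Pparg first start, chr6:115360894-115360950: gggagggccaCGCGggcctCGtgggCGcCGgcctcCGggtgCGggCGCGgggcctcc
Pparg second start, chr6:115362099-115362291: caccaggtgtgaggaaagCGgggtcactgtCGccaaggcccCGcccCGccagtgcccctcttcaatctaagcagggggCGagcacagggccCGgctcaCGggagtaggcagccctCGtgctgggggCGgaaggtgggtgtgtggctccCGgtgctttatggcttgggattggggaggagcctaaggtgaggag
Pparg last start, chr6:115421816-115422065: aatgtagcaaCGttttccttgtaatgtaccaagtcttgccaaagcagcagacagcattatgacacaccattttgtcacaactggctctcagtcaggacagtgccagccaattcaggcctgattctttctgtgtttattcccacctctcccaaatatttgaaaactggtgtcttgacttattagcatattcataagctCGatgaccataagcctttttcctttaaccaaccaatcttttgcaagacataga
Ppard, chr17:28232504-28232699: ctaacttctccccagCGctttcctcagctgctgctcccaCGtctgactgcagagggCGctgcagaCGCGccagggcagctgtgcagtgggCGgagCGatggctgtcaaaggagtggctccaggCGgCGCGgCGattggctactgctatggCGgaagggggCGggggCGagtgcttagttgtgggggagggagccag
Acsl1 first start, chr8:46470787-46471036: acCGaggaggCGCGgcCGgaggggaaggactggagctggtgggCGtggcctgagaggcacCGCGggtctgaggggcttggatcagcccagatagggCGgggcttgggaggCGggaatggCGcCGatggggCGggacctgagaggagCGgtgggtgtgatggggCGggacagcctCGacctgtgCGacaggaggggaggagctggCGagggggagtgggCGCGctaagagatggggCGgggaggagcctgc
Acsl1 second start, chr8:46490716-46490965: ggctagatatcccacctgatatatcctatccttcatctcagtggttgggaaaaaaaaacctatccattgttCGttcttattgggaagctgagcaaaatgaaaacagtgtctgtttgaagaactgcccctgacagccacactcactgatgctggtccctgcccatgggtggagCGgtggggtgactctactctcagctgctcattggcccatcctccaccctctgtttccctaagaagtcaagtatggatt
Pdk4, chr6:5496310-5496528 (minus strand): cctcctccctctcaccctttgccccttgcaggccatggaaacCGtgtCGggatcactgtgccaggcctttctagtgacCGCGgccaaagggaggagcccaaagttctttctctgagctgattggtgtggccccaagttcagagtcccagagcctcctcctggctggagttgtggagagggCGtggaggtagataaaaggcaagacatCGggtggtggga

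The direct repeat that PPAR and retinoid X receptor dimers are known to bind, DR1, is the half-site AGGTCA followed by any 1 base and by AGGTCA again. It was searched on both strands of the 9 full windows. It occurred in 0 of the 9, and in 0.0335% of the windows of all genes. A single half-site occurred in 2 of the 9 windows, those of the first and second Pparg starts, on the plus strand from position -28 and from -9 relative to the start. It was present in 14% of all windows, and each match to the repeat also holds the half-site.

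Dnmt1 checks the genotype labels. It was at 86.6 and 67.0 CPM (counts relative to library size, with edgeR's TMM factors) in Dnmt1fl/fl replicates 1 and 2, and at 37.0 and 42.7 CPM in Dnmt1KO replicates 1 and 2. Both Dnmt1KO samples were lower, as the labels say, by -0.95 on the log2 scale (standard error 0.24), but the adjusted p was 1.00 with edgeR over the 12542 genes. Lyz2, the gene whose promoter drives Cre, was at 29531 and 28587 CPM in Dnmt1fl/fl and at 11351 and 15745 CPM in Dnmt1KO samples. The part of the Cre allele itself in this difference was not tested. All 10 macrophage markers examined were listed, among them Adgre1 (F4/80) at 700 to 986 CPM and Csf1r at 1011 to 1126 CPM. The samples held 20228071 to 24198943 counts, and 3 counts, taken as the lowest meaningful value, were 0.124 to 0.148 CPM.

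Dnmt1KO replicate 1 stood apart from the other 3 libraries, and its values touch most results below. Over all genes tested it was the highest or the lowest sample in 78.4%. The 7 neutrophil markers listed summed to 737 CPM in it and to 182 to 253 CPM elsewhere, while the 8 B cell markers summed to 201 CPM in it and to 424 to 655 CPM elsewhere. Among the neutrophil markers Csf3r was nearly level, at 137 to 169 CPM. S100a9 was at 5.55 and 60.5 CPM in Dnmt1fl/fl and at 320 and 8.35 CPM in Dnmt1KO replicates 1 and 2, so the controls differed in it too. Retnlg was alike in the controls, at 7.89 and 6.22 CPM. The levels in Dnmt1KO replicate 1 also followed transcript length. Genes with a protein-coding transcript under 1000 bases lay 0.47 above their mean over the samples (median, log2 CPM, 572 genes), and genes of 8000 bases or more lay 0.44 below it (648 genes). In Dnmt1KO replicate 2 the same medians were -0.22 and 0.28, in Dnmt1fl/fl replicate 1 -0.22 and 0.25, and in Dnmt1fl/fl replicate 2 -0.012 and -0.047. In bulk samples fewer cells of a type and less RNA per cell cannot be told apart.

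Levels of different genes were compared per kilobase of the longest protein-coding transcript. Fabp5 was the most abundant member, with a median of 1190 CPM per kilobase over the 4 samples (range 982 to 2373), followed by Fabp4 at 326 (197 to 386) and Pparg at 27.2 (23.4 to 41.6). The ranges of these 3 genes did not overlap. Ncor1 came next at 12.5 (8.03 to 15.0) and Acsl1 at 10.7 (9.68 to 13.1), which did not differ beyond their spread. Ppard at 5.43 (4.68 to 6.87) and Angptl4 at 3.49 (1.41 to 6.41) overlapped too. Ppargc1b at 0.822 (0.442 to 1.24) and Pdk4 at 0.163 (0.0915 to 0.196) were the lowest, and their ranges were separate from each other and from the genes above. With the longest transcript of any kind instead, which for Fabp4 and Fabp5 is a retained-intron transcript of 4231 and 3238 bases against 896 and 987, Fabp4 was at 69.1 and Fabp5 at 363 CPM per kilobase, and the order of the 9 genes was the same.

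**Figure D1:**
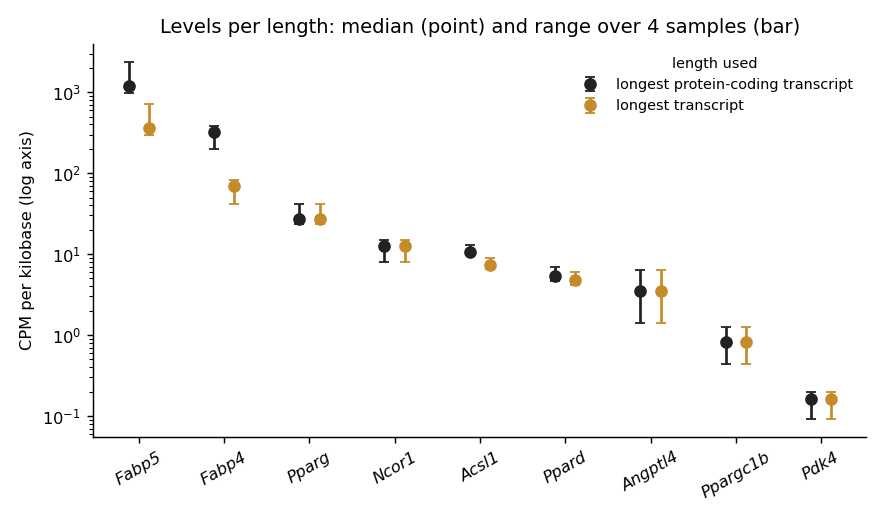
Level of each gene per kilobase of transcript on a log axis, with the median (point) and the range (bar) over 4 samples, for 2 choices of transcript length. Fabp5 and Fabp4 lie above the other genes under both lengths, and Pdk4 is lowest at a median of 0.163 CPM per kilobase.

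Within a sample the balance of related genes was uneven. The ratio of Fabp5 to Fabp4 per kilobase was 3.27 and 4.99 in Dnmt1fl/fl and 6.52 and 3.87 in Dnmt1KO replicates 1 and 2. Pparg exceeded Ppard in every sample, by 6.76, 5.02, 6.56 and 3.41 times in the same order. The ratio of Ncor1 to Pparg was 0.349 and 0.446 in Dnmt1fl/fl and 0.26 and 0.64 in Dnmt1KO samples. All of these ratios overlapped between genotypes. The ratio of Fabp4 to Pparg, the receptor of which it is a target, was 9.28 and 8.36 in Dnmt1fl/fl and 11.8 and 12.3 in Dnmt1KO samples, so that the genotypes did not overlap. This ratio was singled out after its values were seen and was not tested, and 2 samples against 2 cannot give an exact two-sided permutation p under 0.333.

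Of the 9 members, 0 had an adjusted p under 0.05 between Dnmt1KO and Dnmt1fl/fl in edgeR's quasi-likelihood test, where 0% of all 12542 genes were called. At an unadjusted p under 0.05 the members numbered 0 as well, against 0.279% of all genes (0.112% higher and 0.167% lower in Dnmt1KO). The genotypes overlapped in all 9 members, while 16.7% of genes tested had both Dnmt1KO samples on one side of both Dnmt1fl/fl samples (8.14% above and 8.56% below). Estimates of 0.2 or more in size on the log2 scale were found for 4 members, Pparg and Ppargc1b below 0 and Fabp5 and Angptl4 above (Pdk4, printed as 0.20, lies just under before rounding), beside 41.5% of all genes (19.7% below 0 and 21.8% above). Of all genes past that size 52.4% were higher in Dnmt1KO, and 33.6% when libraries were scaled by their totals alone. The members of that size numbered 4 to 7 over the other settings tried, with 6 under the replicate block and with limma-voom, where Fabp4 (0.23 in both) and Pdk4 (0.25 and 0.29) were included. DESeq2 and limma-voom also called 0 members. These counts do not show that the genes were equal, since every 95% interval spans differences of both signs.

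**Figure D2:**
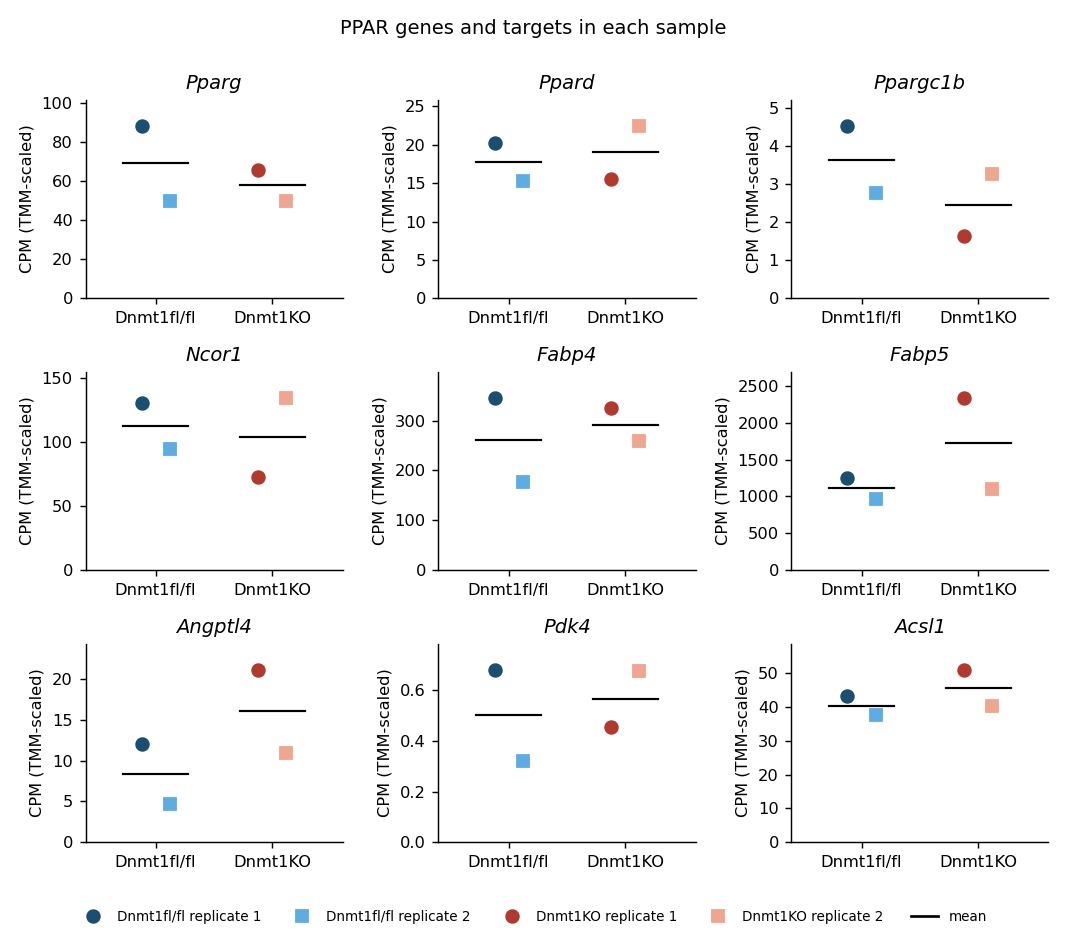
TMM-scaled CPM of the 9 genes in each sample, with the mean of each genotype as a bar. In every panel the 2 genotypes overlap, and Dnmt1KO replicate 1 is the highest sample for Fabp5, Angptl4 and Acsl1 and the lowest for Ncor1 and Ppargc1b.

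Among the receptors, Pparg (chromosome 6, 115360951 to 115490399, plus strand, GENCODE M21 on GRCm38) was at 88.4 and 50 CPM in Dnmt1fl/fl replicates 1 and 2 and at 65.7 and 49.8 CPM in Dnmt1KO replicates 1 and 2. One control sample was the highest, and the other 3 lay between 49.8 and 65.7 CPM. The mean was 69.2 ± 27.2 CPM (SD, n = 2) in Dnmt1fl/fl and 57.8 ± 11.3 (SD, n = 2) in Dnmt1KO macrophages. On the log2 scale Dnmt1KO differed from Dnmt1fl/fl by -0.26 (standard error 0.34, 95% interval -1.10 to 0.58, adjusted p = 1.00 from edgeR). Without Dnmt1fl/fl replicate 1 it was 0.21, so this library set the direction.

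Ppard (chromosome 17, 28232700 to 28301474, plus strand) was at 20.2 and 15.3 CPM in Dnmt1fl/fl and at 15.5 and 22.5 CPM in Dnmt1KO replicates 1 and 2. Each genotype held 1 sample near 15 and 1 above 20 CPM. The log2 fold change was 0.10 (standard error 0.30, 95% interval -0.64 to 0.83, adjusted p = 1.00 from edgeR), smaller than the pooled SD between replicates of 0.33. It was 0.34 without Dnmt1KO replicate 1 and -0.20 without Dnmt1KO replicate 2, and -0.084 without Dnmt1fl/fl replicate 2.

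The coregulators gave lower values in Dnmt1KO replicate 1. Ppargc1b (chromosome 18, 61298136 to 61400431, minus strand), a coactivator of mitochondrial and fatty acid oxidation genes, was measured by 93 and 69 counts in Dnmt1fl/fl and by 32 and 77 counts in Dnmt1KO replicates 1 and 2. In CPM these were 4.53 and 2.75, and 1.62 and 3.26, so that 1 Dnmt1KO sample lay below both controls and the other between them. The log2 fold change was -0.57 (standard error 0.51, 95% interval -1.84 to 0.70, adjusted p = 1.00 from edgeR), and -0.15 without Dnmt1KO replicate 1. It was -0.17 without Dnmt1fl/fl replicate 1.

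Ncor1 (chromosome 11, 62316426 to 62458541, minus strand), the corepressor that recruits histone deacetylase 3, was at 131 and 94.9 CPM in Dnmt1fl/fl and at 72.6 and 135 CPM in Dnmt1KO replicates 1 and 2. The Dnmt1KO samples were the lowest and the highest of the 4. The gap between them was 0.90 on the log2 scale, against a log2 fold change between genotypes of -0.12 (standard error 0.36, 95% interval -1.03 to 0.79, adjusted p = 1.00 from edgeR). Its longest transcript has 9037 bases, in the length class that was low in Dnmt1KO replicate 1, and with the trend of length removed from each library the log2 fold change was 0.0051. Without Dnmt1KO replicate 1 it was 0.26, and without Dnmt1fl/fl replicate 1 it was 0.13.

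The 5 targets all had estimates above 0, beside 50.9% of all genes tested, but none was called. The number above 0 was 2 of 5 without Dnmt1KO replicate 1 and 3 of 5 without Dnmt1fl/fl replicate 2. It was 4 of 5 with the trend of protein-coding length removed. Fabp4 (chromosome 3, 10204088 to 10208576, minus strand), a carrier long used as a readout of Pparg activity, was at 346 and 176 CPM in Dnmt1fl/fl and at 326 and 258 CPM in Dnmt1KO replicates 1 and 2. Both Dnmt1KO values lay inside the control range. The log2 fold change was 0.16 (standard error 0.37, 95% interval -0.76 to 1.09, adjusted p = 1.00 from edgeR), and it was -0.018 without Dnmt1KO replicate 1 and -0.24 without Dnmt1fl/fl replicate 2. It was -0.052 once a trend with the length of the longest protein-coding transcript was removed, an alternative added after the data were seen.

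Fabp5 lies on the same chromosome (10012548 to 10016607, plus strand), 187480 bases before Fabp4. It was at 1248 and 969 CPM in Dnmt1fl/fl replicates 1 and 2, at 2342 CPM in Dnmt1KO replicate 1 and at 1102 CPM in Dnmt1KO replicate 2. The first Dnmt1KO sample was far above the other 3, and the second lay between the controls. The mean was 1108 ± 197 CPM (SD, n = 2) in Dnmt1fl/fl and 1722 ± 876 (SD, n = 2) in Dnmt1KO macrophages, and the log2 fold change was 0.64 (standard error 0.41, 95% interval -0.39 to 1.66, adjusted p = 1.00 from edgeR). Without Dnmt1KO replicate 1 the estimate was -0.011. Without Dnmt1KO replicate 2 it was 1.08 with an adjusted p of 0.0406 from edgeR, in a fit where 5.37% of all genes were called and the lone Dnmt1KO library is assumed to vary like the control samples. The estimate was 0.68 after the trend with the longest transcript of any kind was removed, and 0.39 after that with protein-coding length. Of the gene's 100-base stretches, 2.19% also occur in transcripts of other genes, mainly Gm6166.

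Angptl4 (chromosome 17, 33773750 to 33781830, minus strand) had the largest estimate of the 9. It was at 12.1 and 4.66 CPM in Dnmt1fl/fl and at 21.2 and 10.9 CPM in Dnmt1KO replicates 1 and 2, from 249, 117, 420 and 258 counts. One Dnmt1KO sample was above both controls and the other just under the higher control. The log2 fold change was 0.94 (standard error 0.55, 95% interval -0.44 to 2.32, adjusted p = 1.00 from edgeR), while the 2 Dnmt1fl/fl samples differed from each other by 1.37. Leaving out 1 sample at a time kept the estimate above 0 but moved it between 0.39, without Dnmt1KO replicate 1, and 1.78, without Dnmt1fl/fl replicate 1, with 0.41 without Dnmt1fl/fl replicate 2.

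Pdk4 (chromosome 6, 5483351 to 5496309, minus strand) was close to the limit of detection, with 14 and 8 counts in Dnmt1fl/fl and 9 and 16 counts in Dnmt1KO replicates 1 and 2. In CPM these were 0.682 and 0.319, and 0.454 and 0.678. Each genotype had 1 sample near 0.68 and 1 lower. With so few counts its log2 fold change was 0.20 (standard error 0.70, 95% interval -1.53 to 1.93, adjusted p = 1.00 from edgeR), the widest interval of the 9. The estimate was -0.26 without Dnmt1fl/fl replicate 2 and -0.11 without Dnmt1KO replicate 2.

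Acsl1 (chromosome 8, 46471037 to 46536051, plus strand) varied least, from 37.7 to 51.1 CPM. It was at 43.2 and 37.7 CPM in Dnmt1fl/fl and at 51.1 and 40.4 CPM in Dnmt1KO replicates 1 and 2. The first Dnmt1KO sample was the highest and the second lay between the controls. Its log2 fold change was 0.18 (standard error 0.23, 95% interval -0.39 to 0.74, adjusted p = 1.00 from edgeR), and -0.0046 without Dnmt1KO replicate 1. A share of 8.45% of its 100-base stretches is also part of Gm45244, annotated on the opposite strand, and the library kit named by the labels is not described as keeping strand, so reads there cannot be assigned to either gene.

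**Figure D3:**
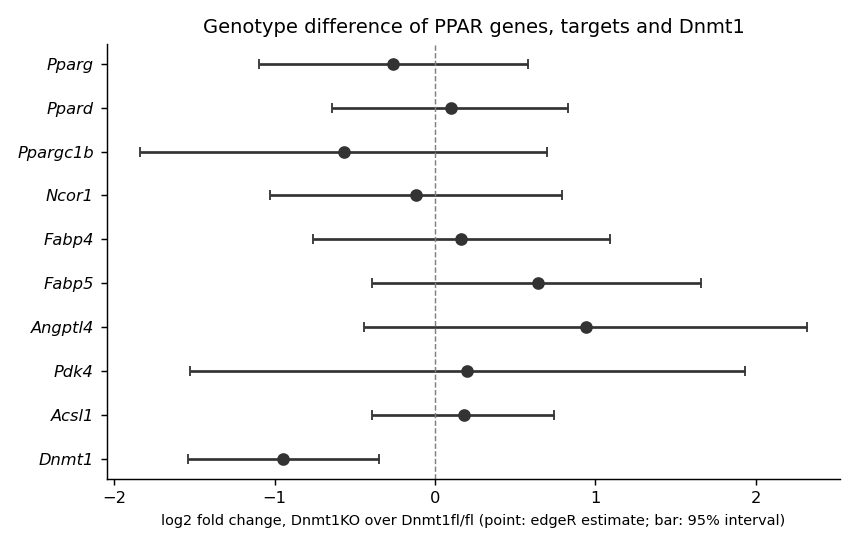
Log2 fold change of Dnmt1KO over Dnmt1fl/fl from edgeR with its 95% interval for the 9 genes and Dnmt1. The intervals of all 9 genes cross 0 and that of Dnmt1 runs from -1.54 to -0.35 before adjustment for multiple testing.

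The spread between replicates was as large as or larger than the difference between genotypes for most members. In log2 CPM, the gap between the 2 Dnmt1KO samples exceeded the difference of genotype means in 8 of 9 members (all but Angptl4), beside 84.1% of all genes tested. The gap between the 2 Dnmt1fl/fl samples exceeded it in 8 of 9 (all but Fabp5), beside 57.5% of all genes. The median gap between control samples was 0.71 over the members and 0.21 over all genes, and between Dnmt1KO samples 0.54 and 0.48. Dnmt1fl/fl replicate 2 was the lowest sample in 6 of 9 members (Ppard, Fabp4, Fabp5, Angptl4, Pdk4 and Acsl1) and in 16% of all genes. Dnmt1fl/fl replicate 1 was the highest in 4 of 9 (Pparg, Ppargc1b, Fabp4 and Pdk4) and in 19% of all genes. Dnmt1KO replicate 1 was the highest or the lowest in 5 of 9, below its share over all genes given above.

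**Figure D4:**
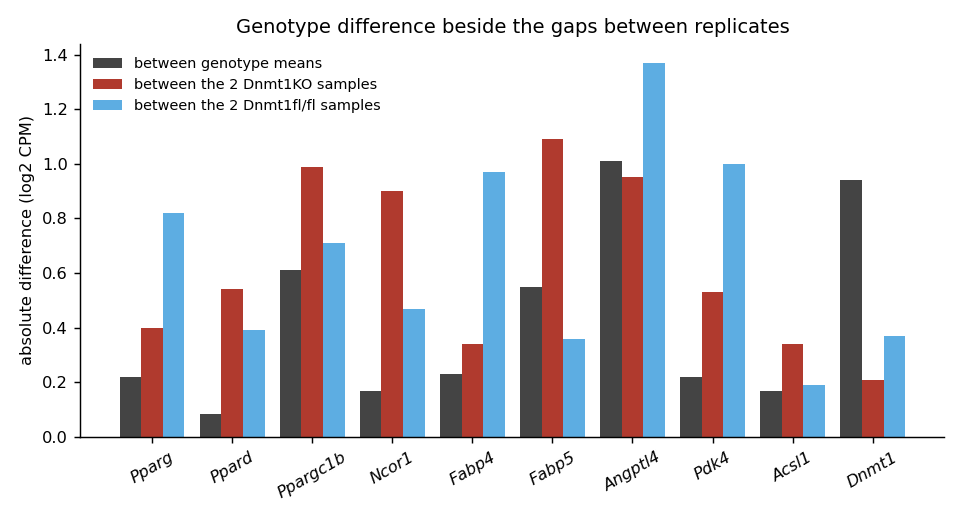
Absolute difference in log2 CPM between genotype means (dark), between the 2 Dnmt1KO samples (red) and between the 2 Dnmt1fl/fl samples (blue). A replicate gap is the tallest bar for each of the 9 genes, and for Dnmt1 the genotype difference is.

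Genes that act with the receptors were followed in a fixed list of 20 partners and coregulators, of which 18 were listed and 17 tested. Ppara and Rxrg are not in the table, which lists only genes above 0 in all 4 samples. In Dnmt1KO 5 had estimates above 0 and 12 below it, 0 of them past the adjusted threshold and 0 past an unadjusted p under 0.05, with a median log2 fold change of -0.092 beside 0.0046 over all genes tested, of which 50.9% were above 0. Rxra, the main dimer partner of the receptors, was nearly level at 132 and 126 CPM in Dnmt1fl/fl and 132 and 135 CPM in Dnmt1KO samples. The 2 genes with the lowest p were Pprc1, a relative of the PGC-1 coactivators (log2 fold change -0.25, standard error 0.26), and Nrip1, a corepressor (-0.22, standard error 0.31). Both had their lowest value in Dnmt1KO replicate 1. The counts turned to 13 above 0 and 4 below without this library, and to 11 and 6 without Dnmt1fl/fl replicate 1. With the trend of transcript length removed they were 10 and 7, or 58.8% above 0, beside 59.2% of all genes in that fit.

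Other genes linked to Pparg in macrophages numbered 16, all tested, with 13 estimates above 0 in Dnmt1KO and 3 below, a median of 0.17, and 0 called at either threshold. The lipid droplet coat protein Plin2 was at 2008 and 1618 CPM in Dnmt1fl/fl and at 3971 and 1819 CPM in Dnmt1KO replicates 1 and 2, which is 0.68 higher on the log2 scale (standard error 0.42, adjusted p = 1.00 from edgeR). As for Fabp5, the first Dnmt1KO sample was far above the rest and the second lay between the controls. Abcg1, a cholesterol exporter, was at 256 and 240 CPM in Dnmt1fl/fl and at 384 and 283 CPM in Dnmt1KO samples (log2 fold change 0.43, standard error 0.25, adjusted p = 1.00 from edgeR), with no overlap of the genotypes. Such non-overlap, higher in Dnmt1KO, was found in 3 of the 16 (Abca1, Abcg1 and Cpt1a) and in 8.14% of all genes. Under the replicate block 10 of the 16 estimates were above 0 with a median of 0.026, beside 48.7% of all genes, and with limma-voom 10 with a median of 0.021. Without Dnmt1KO replicate 1, 7 of the 16 were above 0 and the median was -0.18.

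Uptake and activation genes were split evenly, with 5 of 10 tested above 0 and 5 below, a median of -0.017, and 0 called at either threshold. The lowest p values belonged to Dbi, an acyl-CoA binding protein, at 84.6 and 91.5 CPM in Dnmt1fl/fl and 146 and 82.9 CPM in Dnmt1KO replicates 1 and 2 (log2 fold change 0.38, standard error 0.32), and to Slc27a3, an acyl-CoA synthetase of the fatty acid transport family (-0.34, standard error 0.41). The genotypes did not overlap for 3 of the 10, all lower in Dnmt1KO (Slc27a3, Acsl3 and Acbd3), beside 8.56% of all genes. Without Dnmt1KO replicate 1, 1 of the 10 was above 0, and with the trend of transcript length removed 7 were.

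The fatty acid oxidation list held 22 genes, all tested, of which 19 had estimates above 0 in Dnmt1KO and 3 below (Ehhadh, Eci1 and Etfdh). This share of 86.4% stands beside 50.9% of all genes tested, the median log2 fold change was 0.17, and 0 genes were called at either threshold. The genotypes did not overlap for 3 of the 22, all higher in Dnmt1KO (Cpt1a, Acadm and Hadh), beside 8.14% of all genes. The lowest p values were those of Hadh, a dehydrogenase of the mitochondrial cycle (log2 fold change 0.40, standard error 0.24, adjusted p = 1.00 from edgeR), and Slc25a20, the carnitine carrier of the mitochondrial inner membrane (0.48, standard error 0.30). Slc25a20 was at 28.4 and 31.3 CPM in Dnmt1fl/fl, at 52.6 CPM in Dnmt1KO replicate 1 and at 30.9 CPM in Dnmt1KO replicate 2. The count above 0 was 13 of 22 and the median 0.018 without Dnmt1KO replicate 1, and the count was 20 of 22 with the trend of transcript length removed, where 59.2% of all genes were above 0. Dnmt1KO replicate 1 was the highest or the lowest sample for 19 of the 22.

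In the storage and lipolysis list 15 of 21 genes were tested, 13 above 0 and 2 below, with a median of 0.27 and 0 called at either threshold, beside 50.9% of all genes above 0. With limma-voom 11 of the 15 were above 0 and the median was 0.16, and with library totals alone the median was 0.18. Plin1, Plin4, Cidea and Cidec are not listed. Pnpla2, the lipase that starts triglyceride breakdown, was at 88.2 and 61.6 CPM in Dnmt1fl/fl and at 120 and 103 CPM in Dnmt1KO samples (log2 fold change 0.57, standard error 0.27, unadjusted p = 0.0801 and adjusted p = 1.00 from edgeR). Both Dnmt1KO samples were above both controls, as for Dgat1 and for no other tested gene of this list, beside 8.14% of all genes. Plin2, described above, had the next lowest p of this list. Without Dnmt1KO replicate 1 8 of the 15 estimates were above 0, and the median was 0.0015.

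Paralogs of the members, meaning other genes of the same families, numbered 13 tested of 18, with 5 above 0 and 8 below, a median of -0.063, and 0 called at either threshold. Pdk3, another pyruvate dehydrogenase kinase, was at 12.8 and 13.2 CPM in Dnmt1fl/fl and at 21.4 and 12.6 CPM in Dnmt1KO replicates 1 and 2 (log2 fold change 0.39, standard error 0.33), and Pprc1, described above, had the next lowest p of the list. Without Dnmt1KO replicate 1, 2 of the 13 were above 0, and with the trend of transcript length removed 9 were. Without Dnmt1KO replicate 2, where 5.37% of all genes had an adjusted p under 0.05 in edgeR, the genes called numbered 3 of the 16 linked to Pparg (median 0.44), 1 of 10 for uptake and activation, 2 of 22 for oxidation, 2 of 15 for storage and lipolysis, 1 of 13 paralogs and 0 of 17 partners and coregulators.

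**Figure D5:**
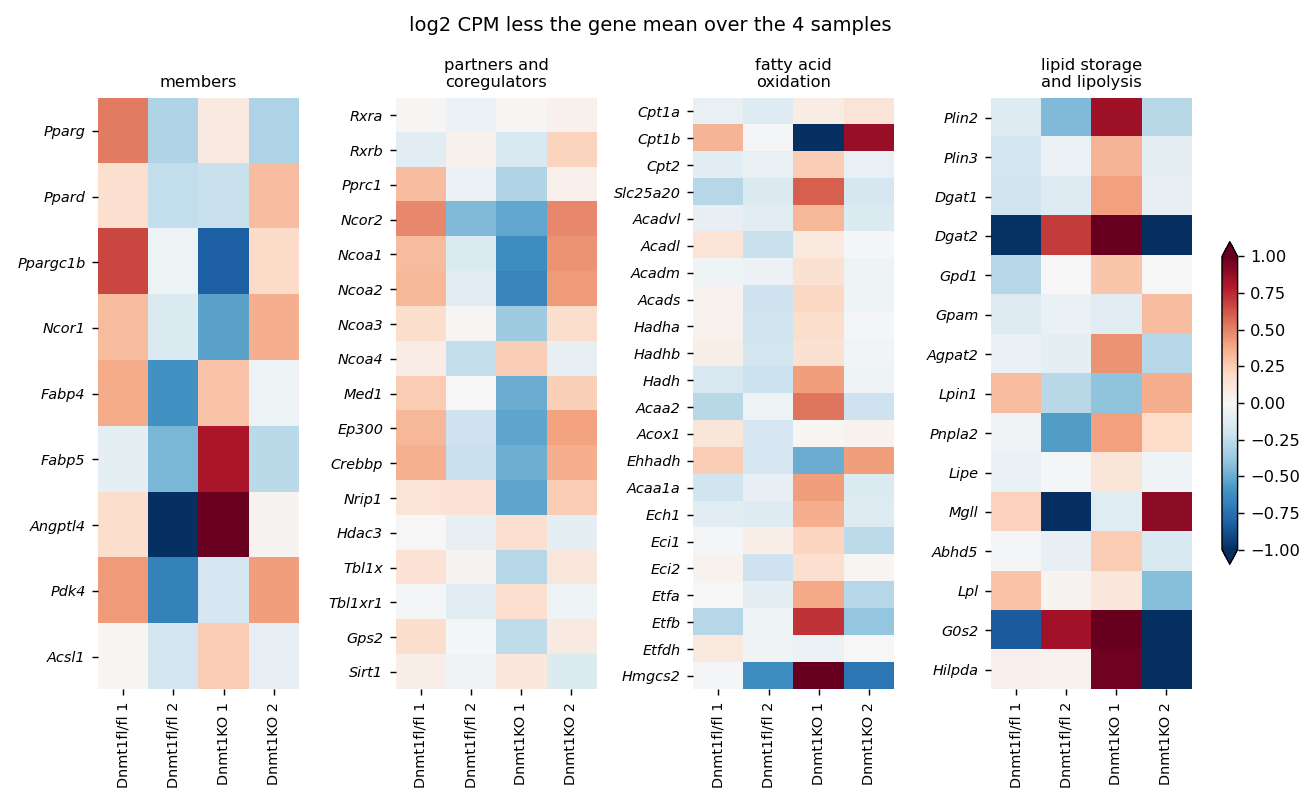
Log2 CPM of each gene less its mean over the 4 samples, for the 9 genes, their partners and coregulators, fatty acid oxidation and lipid storage genes, with the colour scale ending at -1 and 1. The column of Dnmt1KO replicate 1 is blue for most partners and red for most oxidation and storage genes, and Dnmt1KO replicate 2 does not share that pattern.

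The members were also compared with markers of other cells in which they are known to be high. Fabp4, Pparg and Acsl1 are abundant in adipocytes, and 0 of the 10 adipocyte markers examined (among them Adipoq, Plin1, Cidec and Lep) are listed in the table. Fabp4 is also an endothelial gene. The 4 endothelial markers listed of 8 (Pecam1, Cdh5, Kdr and Tie1) summed to 18.5 to 23.8 CPM, and Tek, Egfl7, Gpihbp1 and Cldn5 are not listed. Fabp4 was at 176 to 346 CPM. These values are not per kilobase, so they do not compare the levels of the genes. Summed mesothelial and fibroblast markers were at 143 CPM in Dnmt1KO replicate 1 and at 35.1 to 74.2 CPM elsewhere. The 9 markers of resident large peritoneal macrophages all had estimates below 0 in Dnmt1KO, with a median log2 fold change of -0.43 and sums of 1100 and 1365 CPM in Dnmt1fl/fl and 765 and 1061 CPM in Dnmt1KO samples, and 0 were called at either threshold. Dnmt1KO replicate 1 was the highest or lowest sample for 8 of the 9, and both Dnmt1KO samples lay below both controls for 2 (Timd4 and Icam2), beside 8.56% of all genes. Dnmt1KO replicate 2 was the highest sample for Gata6 and Lbp, between the controls for Alox15, Prg4, Selp and Cd5l, and the lowest for Apoc1. Of 10 recruited monocyte and small macrophage markers 9 had estimates below 0, with a median of -0.23, 0 called at either threshold, and sums of 4630 and 3889 CPM in Dnmt1fl/fl and 2492 and 4670 CPM in Dnmt1KO replicates 1 and 2. The MHC class II genes H2-Ab1, H2-Aa and H2-Eb1 were the largest parts of these sums. In Dnmt1KO replicate 1 Ccr2 was low, at 376 CPM against 498 to 682 elsewhere. Ly6c2 was high in it, at 23.3 CPM against 7.46 to 18.7 elsewhere. The part of any of these cell types in the values of the members was not tested.

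The genes most like Pparg and Fabp4 over the 4 samples were sought among 90 other tested members and list genes, by the root mean square difference of log2 CPM centred on each gene's mean. Among those closest to Pparg were Cd36, a fatty acid and lipoprotein receptor (0.17), and Lpl, lipoprotein lipase (0.21). Cd36 was at 2726 and 1944 CPM in Dnmt1fl/fl and at 2352 and 1450 CPM in Dnmt1KO replicates 1 and 2, so that, as for Pparg, replicate 1 was the higher one in both genotypes. Lpl was at 2087 and 1737 CPM in Dnmt1fl/fl and at 1844 and 1274 CPM in Dnmt1KO replicates 1 and 2. Closest to Fabp4 were Pdk2, a kinase related to Pdk4 (0.21), Pparg itself (0.23) and Ncoa4 (0.24). With 4 samples such likeness is a description of these libraries.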

How the data were processed

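RNA sequencing was done on peritoneal macrophages, 2 samples per genotype. Per the labels, the authors aligned paired-end reads to mm10 with HISAT2 2.0.5 and counted them per gene with featureCounts 1.5.0-p3, and they deposited estimated counts without normalization. How reads of several genes were divided is not given in the sources used here. No source used here says that the library kit keeps strand. Between 72.6% and 76.4% of the values were whole numbers (tolerance 1e-09). A shorter table with the same columns was not used.

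After rounding to whole numbers, genes were kept by filterByExpr, libraries were scaled with TMM factors and the genotypes were compared without a block in edgeR 4.0.16 (R 4.3.3), by the two-sided quasi-likelihood test with Benjamini-Hochberg adjustment over 12542 genes. Standard errors and intervals come from that statistic. Log2 CPM used a prior count of 1. Totals per sample were 20228071 to 24198943 counts, and the floor of 3 counts covers counting error only. Same-numbered samples deviated in opposite directions (correlation of -0.35 across genes, which are not independent replicates), so the numbers were not taken as pairs.

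Alternatives were the replicate block, DESeq2 1.42.0, limma-voom (limma 3.58.1), RLE factors, library totals alone, 2 other filters, removal of a loess trend (span 0.5) with transcript length, and leaving out each sample. The crossed pairing and the trend with protein-coding length were added after seeing the data. Positions and lengths are from GENCODE M21, matched by symbol for 98.3% of genes, and promoter windows from RefSeq (GRCm38.p6). The fit was tested on simulated data.

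The members and lists were chosen with earlier results of these data known. Genes named are the 9 members, Dnmt1, the 2 tested genes of each list with the lowest unadjusted p, the 3 genes most like Pparg and Fabp4, of which 1 is not reported here, and markers. Lyz2 is such a marker. Rxra, the non-overlapping Abca1, Cpt1a, Acadm, Dgat1, Acsl3 and Acbd3, and Ehhadh, Eci1 and Etfdh were named after their values were seen. So were the single markers of resident macrophages, recruited monocytes and neutrophils, and the ratio of Fabp4 to Pparg.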

Additional observations from a re-analysis of the deposited data

How the results depend on the processing

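Under the replicate block the log2 fold changes kept their direction, from -0.61 for Ppargc1b to 1.01 for Angptl4, with 0 genes called, and the block changed no call on a member. The numbers were not taken as pairs. With the crossed pairing, added after the data were seen, 3 genes passed the adjusted threshold and 297 an unadjusted p under 0.05. DESeq2 called 1 gene and no member. With no filter 60 genes had an unadjusted p under 0.05, and 54 with the trend of protein-coding length removed. The length correction gave Ncor1 0.0051, or 0.0037 with the replicate block and 0.008 by protein-coding length. Fabp4 was at 0.26 under the length correction, 0.31 with the block and -0.052 by protein-coding length. Under the length correction with or without the block 7 members reached an absolute log2 fold change of 0.2. Leaving out 1 sample at a time, the log2 fold change ran from -0.61 to 0.21 for Pparg, -0.20 to 0.34 for Ppard, -1.16 to -0.15 for Ppargc1b, -0.64 to 0.26 for Ncor1, -0.24 to 0.73 for Fabp4, -0.011 to 1.08 for Fabp5, 0.39 to 1.78 for Angptl4, -0.26 to 0.82 for Pdk4, -0.0046 to 0.34 for Acsl1 and -1.12 to -0.75 for Dnmt1. In the same fits 0 to 674 genes were called, with 41 to 3418 at an unadjusted p under 0.05, 5119 to 9028 at an absolute log2 fold change of 0.2, 0 to 1 members called and 5 to 7 members past 0.2. The 674 genes and the called member, Fabp5, came without Dnmt1KO replicate 2, as did an adjusted p under 0.05 for Dnmt1 (log2 fold change -1.05). The lone sample in such a fit is assumed to vary like the other genotype, and the cause of these changes was not tested. Pdk4 was not tested where 10 counts were required in every sample.

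With 2 samples per genotype, the intervals of the 9 genes admit differences of both signs. Pdk4 rests on 8 to 16 counts a sample.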
